A study of Rattus norvegicus with 12 samples.

Results

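The genes described are 44 rat genes of fatty acid synthesis and oxidation, measured in N27, a neural cell line of rat origin that its labels call dopaminergic. They were chosen by name: every probe that was not a control and carried the current or an older symbol of a listed gene was taken, which gave 61 probes. The list holds 18 genes of synthesis, 19 of oxidation and 7 of fatty acid uptake, storage and the response to PPAR receptors, out of 36181 genes and transcripts on the array. Of the 44 genes, 35 were measured well enough to be tested and 9 were not.

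Total RNA came from 6 N27 samples given 25 µM fipronil over 24 h and from 6 samples of untreated N27 cells. Fipronil, an insecticide of the phenylpyrazole class, blocks GABA-gated chloride channels, and the study's title asks for its effects in these cells. The labels name no vehicle for the control cells and do not say whether samples of a group were separate cultures, so the p-values cover only the spread of these samples, and that spread may be technical. All samples belong to this single immortalised line, and no animal tissue was measured.

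Fatty acids are built in the cytosol from acetyl-CoA, which ATP-citrate lyase and acetyl-CoA synthetase supply, acetyl-CoA carboxylase turns into malonyl-CoA, and fatty acid synthase joins into chains. Oxidation runs the other way: the carnitine shuttle carries long chains into mitochondria, a spiral of dehydrogenases, hydratases and thiolases shortens them, and the electron transfer flavoprotein passes their electrons to the respiratory chain. Malonyl-CoA inhibits the carnitine palmitoyltransferases at the mitochondrial outer membrane, so that the opposing pathways are usually not active together. In the brain most fatty acid oxidation is known from astrocytes, while neurons oxidise little.

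The arrays lay on 3 slides that nearly coincide with treatment. Fipronil replicates 1 to 4 filled slide 3, control replicates 5 to 8 filled slide 2, and slide 1 had fipronil replicates 7 and 8 with control replicates 2 and 3. The 75th percentile of the signal was 111 to 140 on slide 3, 245 to 279 on slide 1 and 379 to 472 on slide 2. The share of spots well above background was 40.8% to 42.5%, 44.5% to 46.8% and at least 47.4% on the same slides in that order. Slide and treatment cannot be told apart on slides 2 and 3, so the main differences are also given on slide 1 alone, from 2 arrays of each treatment. Of 10 markers of dopaminergic neurons, Th (tyrosine hydroxylase) and Aldh1a1 were tested, and 5 were well above background on no array. Th was well above background on all 12 arrays, and Aldh1a1 on 2 fipronil and 6 control arrays. They differed by -0.48 and -0.84 (limma adjusted p 0.152 and 0.0678), and by 0.10 and -0.98 on slide 1. None of the 6 adipocyte, 5 hepatocyte or 4 astrocyte markers was tested, and of the 6 neuronal markers only Tubb3 was. Tubb3 was well above background on 4 fipronil and 5 control arrays and differed by -0.355 (limma adjusted p 0.68). Of the markers of other cells, Mag (oligodendrocytes, 1 of 4), Cx3cr1 (microglia, 1 of 4) and Vwf (endothelium, 1 of 3) were tested. Cx3cr1 and Vwf were well above background on all 12 arrays, and Mag on 2 fipronil and 6 control arrays. Their differences, 0.27 for Cx3cr1, -0.04 for Vwf and -0.69 for Mag, did not pass the test (limma adjusted p 0.349, 0.881 and 0.0861), and their part in the results was not tested.

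Gene by gene, the fatty acid genes did not pass the test. Of the 35 tested, 0 had an adjusted p under 0.05 (limma), against 5.01% of all 13542 genes tested. The adjusted p ran between 0.0773 for Etfa and 0.971 for Acaa2. At an unadjusted p under 0.05 there were 8 (22.9%), against 25% of all genes. Of these, 1 was higher with fipronil, against 9.37% of all genes, and 7 were lower, against 15.7%. In 0 of the 35 did the fipronil arrays lie wholly apart from the control arrays, against 4.18% of all genes. Values were log2 signals relative to each array's 75th percentile, and differences are fipronil minus control on the log2 scale.

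The differences were small and more often below 0 than above. Of the 35 genes, 8 had a higher and 27 a lower mean with fipronil, with a median difference of -0.17, where 40.3% of all genes had a higher mean and their median was -0.08. The median was -0.28 over the 14 tested synthesis genes, with a range of -0.55 to 0.31. Over the 18 tested oxidation genes it was -0.15, with a range of -0.44 to 0.35. Each group's range reached past 0 on either side. On slide 1 alone both medians had the opposite sign, 0.08 for synthesis and 0.16 for oxidation. For 32 of the 35 genes the 95% confidence interval of the difference lay within a 2-fold change in either direction, as it did for 83.2% of all genes, and the exceptions were Elovl6, Fads2 and Agpat2. In bulk RNA a lower share of cells with a transcript and less of it per cell cannot be told apart.

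**Figure D1:**
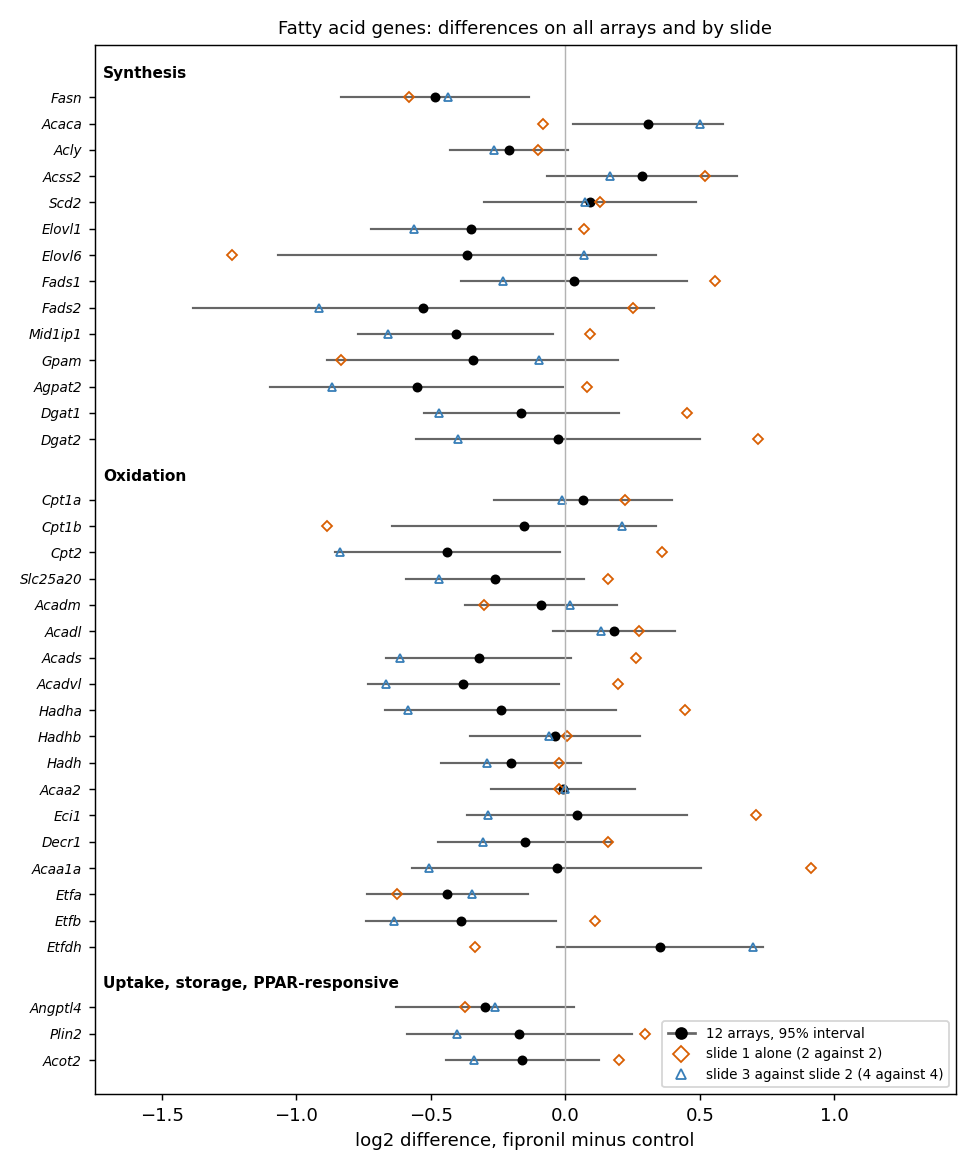
Differences in log2 signal, fipronil minus control, of the 35 tested fatty acid genes: black points and bars are the value on all 12 arrays with its 95% confidence interval, diamonds the difference on slide 1 alone, and triangles the difference of slide 3 against slide 2. In 20 of the 35 genes the diamond lies above 0 and the triangle below it.

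Among the genes that build fatty acids, 5 of 6 were tested. Fasn, on chromosome 10, encodes fatty acid synthase. Its signal was 0.42 at the lowest, 0.50 at the median and 0.76 at the highest in fipronil samples, against 0.37, 1.16 and 1.33 in control samples. All 6 fipronil arrays lay below 5 of the control arrays, and control replicate 5 lay below all of them. The difference was -0.49 ± 0.16 (SE), a signal 1.40-fold lower, with a limma adjusted p of 0.0912. It was below 0 on slide 1 (-0.58) and between slides 3 and 2 (-0.44). Of the 12 fits with an array left out, Fasn passed in 1, without control replicate 5, at -0.62 with a limma adjusted p of 0.0356. That fit called 2.53% of all genes. In the other fits of this kind the limma adjusted p for Fasn was up to 0.18.

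Acaca, on chromosome 10, encodes acetyl-CoA carboxylase 1, which makes the malonyl-CoA that Fasn uses. Its signal was 0.76, 1.08 and 1.30 (lowest, median, highest) in fipronil samples, against 0.47, 0.76 and 0.93 in control samples. The 4 fipronil arrays of slide 3 stood above every control, and the 2 of slide 1 stood among the controls. The difference was 0.31 ± 0.13 (SE, limma adjusted p 0.165), with -0.08 on slide 1 and 0.50 between slides 3 and 2. Acaca was the only gene of the 35 with an unadjusted p under 0.05 and a higher mean with fipronil.

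Mid1ip1, on chromosome X, encodes a protein that promotes the assembly of acetyl-CoA carboxylase into active filaments. Its signal was -0.19, 0.05 and 0.81 in fipronil samples, against 0.29, 0.57 and 0.89 in control samples. Of the fipronil arrays, 5 lay below every control and replicate 8 lay among the higher controls. The difference was -0.41 ± 0.17 (SE, limma adjusted p 0.152), and 0.09 on slide 1. Mid1ip1 passed in 1 of the 12 fits with an array left out, without fipronil replicate 8, at -0.54 with a limma adjusted p of 0.023. That fit called 14.9% of all genes. In the other fits of this kind the limma adjusted p for Mid1ip1 was up to 0.28. The suppliers of acetyl-CoA went opposite ways without passing the test: Acly (ATP-citrate lyase) differed by -0.21 and Acss2 (cytosolic acetyl-CoA synthetase) by 0.28, with limma adjusted p-values of 0.221 and 0.295.

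Of the 7 desaturases and elongases, 5 were tested and 0 passed. Scd, the stearoyl-CoA desaturase named by its older symbol Scd1 in the files, was well above background on 1 fipronil array and 0 control arrays, so no fold is given. Its relative Scd2 was well above background on all 12 arrays and differed by 0.09 ± 0.18 (SE). Elovl1, an elongase of very long chains, differed by -0.35 and Fads1, the delta-5 desaturase, by 0.03. Elovl6, which lengthens palmitate, showed the widest spread of these among controls, at -1.88 to 0.01, against -1.80 to -0.82 in fipronil samples. Its difference was -1.24 on slide 1 and 0.07 between slides 3 and 2. Fads2, the delta-6 desaturase, was well above background on 4 of 6 fipronil arrays and 6 of 6 control arrays and differed by -0.53, with a 95% confidence interval of -1.39 to 0.33. That mean difference leans on fipronil replicate 1, at -5.12, where the lowest signal well above background was -4.495. The other fipronil arrays lay at -3.08 to -2.38, and the medians were -2.75 with fipronil and -2.585 in controls.

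Glycerolipid assembly joins the finished chains to glycerol. Agpat2, on chromosome 3, encodes an acyltransferase that makes phosphatidic acid. Its signal was -3.42, -2.66 and -1.73 in fipronil samples, against -2.66, -2.09 and -1.67 in control samples, so the groups overlapped. The difference, -0.55 ± 0.25 (SE, limma adjusted p 0.192), was the lowest of the 35. It was 0.08 on slide 1 and -0.87 between slides 3 and 2. Agpat2 passed in 1 of the 12 fits with an array left out, without fipronil replicate 8, at -0.73 with a limma adjusted p of 0.0429. That fit called 14.9% of all genes. In the other fits of this kind the limma adjusted p for Agpat2 was up to 0.354. Dgat1 and Dgat2, which complete triacylglycerol, differed by -0.16 and -0.03, and by 0.45 and 0.72 on slide 1.

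The carnitine shuttle was measured in all 4 of its genes, and 0 passed. Cpt1a, on chromosome 1, encodes the outer-membrane enzyme that malonyl-CoA inhibits. Its signal was -3.03, -2.63 and -2.41 in fipronil samples, against -3.06, -2.72 and -2.35 in control samples. The ranges coincided almost fully, and the difference was 0.06 ± 0.15 (SE), with a 95% confidence interval of -0.27 to 0.39. Cpt2, on chromosome 5, encodes the inner-membrane partner that restores the acyl-CoA. Its signal was -1.12, -0.66 and -0.13 in fipronil samples, against -0.64, -0.12 and 0.14 in control samples. The 4 fipronil arrays of slide 3 were lowest among their group, and the 2 controls of slide 1 were lowest among theirs. The difference was -0.44 ± 0.19 (SE, limma adjusted p 0.18), with 0.36 on slide 1 and -0.84 between slides 3 and 2.

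All 10 genes of the mitochondrial spiral were tested, and 0 passed. Acadm, on chromosome 2, encodes the dehydrogenase of medium chains. Its signal was -2.09, -1.69 and -1.50 in fipronil samples, against -1.95, -1.63 and -1.36 in control samples, and the groups overlapped. The difference was -0.09 ± 0.13 (SE), with a 95% confidence interval of -0.37 to 0.19. Acadvl, on chromosome 10, encodes the dehydrogenase of very long chains. Its signal was -1.64, -1.16 and -0.63 in fipronil samples, against -0.95, -0.73 and -0.47 in control samples. The 4 fipronil arrays of slide 3 lay below every control, and the 2 of slide 1 lay among them. The difference was -0.38 ± 0.16 (SE, limma adjusted p 0.174), with 0.20 on slide 1. Acads, for short chains, differed by -0.32 and Acadl, for long chains, by 0.18.

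The peroxisomal thiolase Acaa1a showed the largest slide 1 difference of the 35 genes in the upward direction, at 0.91, against -0.51 between slides 3 and 2 and -0.03 on all arrays. Ehhadh, the bifunctional enzyme of peroxisomes, was well above background on 0 of 12 arrays.

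Electron transfer was the role with the smallest adjusted p. Etfa, on chromosome 8, encodes the alpha subunit of the electron transfer flavoprotein, which takes electrons from the acyl-CoA dehydrogenases. Its signal was -1.38, -1.14 and -0.54 in fipronil samples, against -0.81, -0.66 and -0.57 in control samples. Of the fipronil arrays, 5 lay below every control and replicate 4 lay above every control. The difference was -0.44 ± 0.14 (SE), a signal 1.36-fold lower, with a limma adjusted p of 0.0773, and it was -0.63 on slide 1 and -0.35 between slides 3 and 2. Etfa passed in 1 of the 12 fits with an array left out, without fipronil replicate 4, at -0.55 with a limma adjusted p of 0.0293. That fit called 2.54% of all genes. In the other fits of this kind the limma adjusted p for Etfa was up to 0.16.

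Etfb, on chromosome 1, encodes the beta subunit. Its signal was -0.17, 0.35 and 0.65 in fipronil samples, against 0.33, 0.55 and 1.06 in control samples, and the groups overlapped. The difference was -0.39 ± 0.16 (SE, limma adjusted p 0.165), with 0.11 on slide 1. Etfdh, the oxidoreductase that passes the electrons on to ubiquinone, differed by 0.35 ± 0.18 (SE), with -0.34 on slide 1 and 0.70 between slides 3 and 2. The subunits and their acceptor thus had differences of opposite sign on the 12 arrays, with none past the threshold.

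Of the 7 genes of uptake, storage and the PPAR response, 3 were tested and 0 passed. Angptl4, on chromosome 7, encodes a secreted inhibitor of lipoprotein lipase and is a target of PPAR receptors. Its signal was 1.89, 2.335 and 2.69 in fipronil samples, against 2.41, 2.48 and 3.02 in control samples. The difference was -0.30 ± 0.15 (SE, limma adjusted p 0.245), with -0.37 on slide 1. Plin2, on chromosome 5, encodes a coat protein of lipid droplets. Its signal was -1.04, -0.37 and 0.22 in fipronil samples, against -0.55, -0.17 and -0.03 in control samples. The fipronil arrays spread past the controls at both ends, and the difference was -0.17 ± 0.19 (SE, limma adjusted p 0.615), with 0.30 on slide 1. Acot2, on chromosome 6, encodes a mitochondrial thioesterase. Its signal was -1.85, -1.73 and -1.52 in fipronil samples, against -1.89, -1.50 and -1.25 in control samples. The 2 lowest of the 12 arrays were the controls of slide 1, and the difference was -0.16 ± 0.13 (SE, limma adjusted p 0.467), with 0.20 on slide 1.

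**Figure D2:**
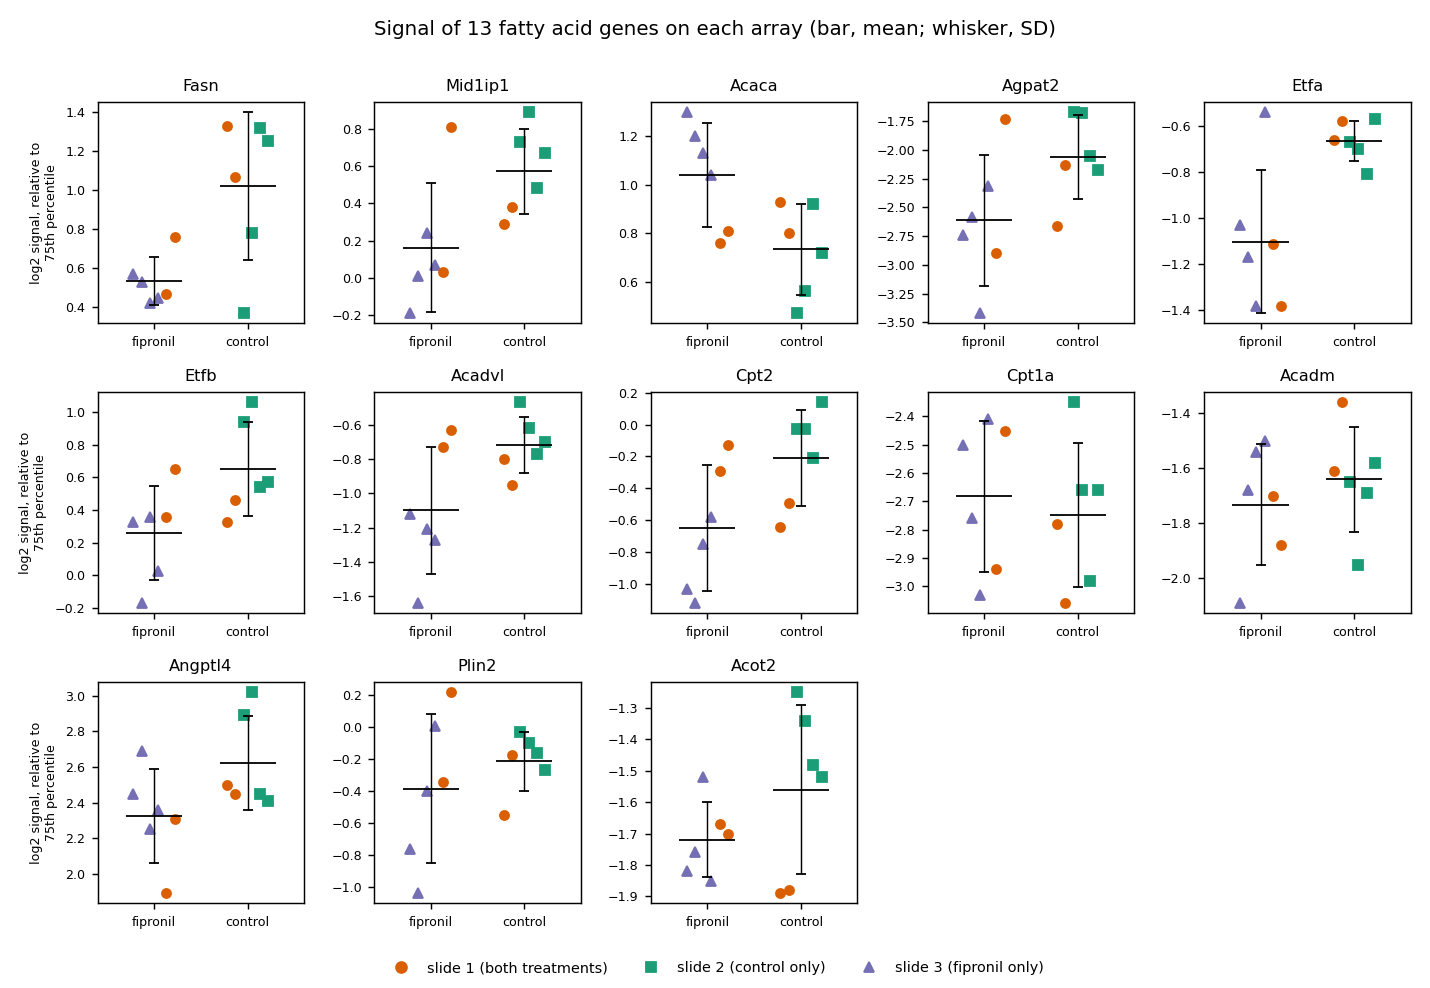
Log2 signal of 13 fatty acid genes on each array, relative to the array's 75th percentile, with fipronil left and control right, coloured by slide; bars are means and whiskers SDs of 6 arrays. The groups overlap in every panel, and in Acadvl and Acaca the 4 slide 3 arrays stand apart from the controls while the fipronil arrays of slide 1 do not.

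The 9 genes not tested include several known targets of PPAR receptors. Pdk4, a kinase that shuts off pyruvate dehydrogenase, Acot1, a cytosolic thioesterase, the fatty acid transporter Cd36 and the binding protein Fabp3 were well above background on 0 of 12 arrays each, and so was Thrsp, a lipogenic protein related to Mid1ip1. The best probe of Elovl5, an elongase of polyunsaturated chains, was well above background on 1 fipronil and 1 control array. The best probe of Lpin1, a phosphatidate phosphatase, was well above background on 0 fipronil arrays and 1 control array. Of the 35 tested genes, 33 were well above background on all 12 arrays. The other two were Fads2 and Gpam, a glycerol-phosphate acyltransferase of mitochondria, whose probe was well above background on 1 fipronil and 6 control arrays.

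On slide 1, which carried both treatments, the pattern differed from that between slides 3 and 2. Of the 35 genes, 23 (65.7%) had a higher mean with fipronil on slide 1, with a median difference of 0.13, against 48.4% and -0.02 for all genes. Between slides 3 and 2, 8 of the 35 (22.9%) had a higher mean with fipronil, with a median of -0.305, against 41.5% and -0.10 for all genes. The 2 differences had the same sign in 10 of 35 genes (28.6%), against 43.8% of all genes. A higher mean on slide 1 with a lower one between slides 3 and 2 occurred in 20 of 35 (57.1%), against 31.6% of all genes, and in 7 of 14 synthesis and 11 of 18 oxidation genes. Whether the slides differ in the response was not tested, because slides 2 and 3 held a single treatment each. A lower mean in both was found in 7 of 35 genes, against 3651 of all 13542. These were Fasn, Acly, Gpam, Hadh, Acaa2, Etfa and Angptl4. Acaa2, at -0.02 and -0.002, and Hadh, at -0.02 on slide 1, hardly differed from 0. A higher mean in both was found in 3 of 35 (Acss2, Scd2 and Acadl), against 2282 of all genes. For Gpam the lower mean in both holds only for the probe that stood for it. Its other kept probe had a higher mean in both, by 0.17 on slide 1 and 0.29 between slides 3 and 2.

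The level of the gene groups was also followed array by array. The median of the oxidation genes, relative to the control mean, was -0.32, -0.32, -0.08 and -0.10 on the fipronil arrays of slide 3, and -0.09 and 0.08 on those of slide 1. It was -0.13 and -0.18 on the control arrays of slide 1 and 0.24, 0.18, -0.01 and 0.04 on those of slide 2. The control arrays of slide 1 thus lay below all 4 of slide 2. For the synthesis genes the fipronil arrays had -0.40, -0.45, -0.035 and -0.135 on slide 3 and -0.10 and 0.21 on slide 1. The control arrays had -0.19 and 0.02 on slide 1 and -0.04, 0.09, 0.115 and -0.03 on slide 2. Fipronil replicates 1 and 2 were the lowest 2 arrays for both groups of genes. They were also the lowest over all 13542 genes, with medians of -0.09 and -0.08, and control replicates 5 and 6 were the highest there, with 0.04 and 0.03.

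**Figure D3:**
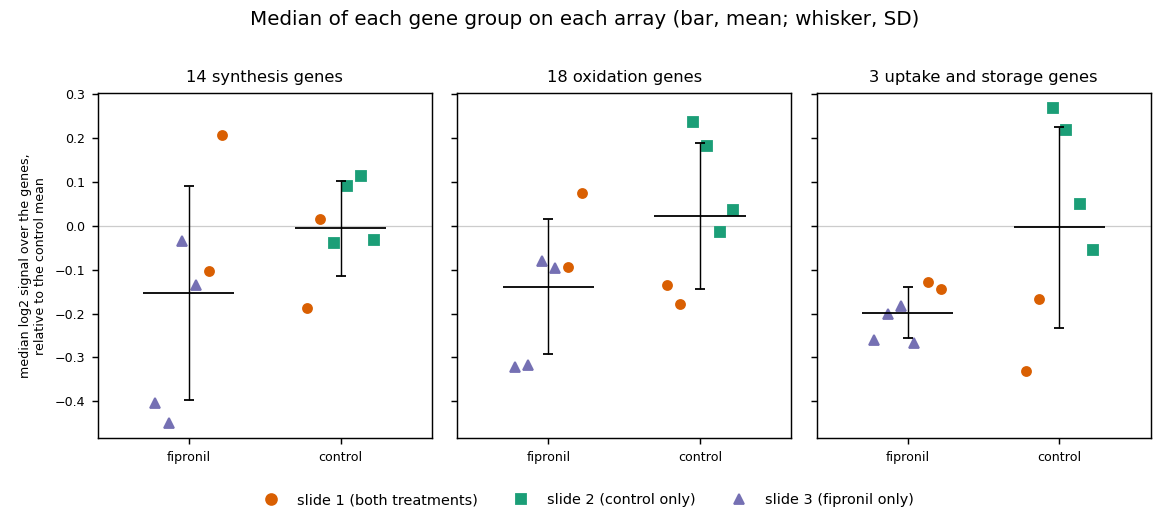
Median log2 signal of the 14 synthesis, 18 oxidation and 3 uptake and storage genes on each array, relative to the mean of the control arrays, with fipronil left and control right, coloured by slide; bars are means and whiskers SDs of 6 arrays. The oxidation medians of the 2 control arrays on slide 1 lie at -0.13 and -0.18, below the 4 control arrays of slide 2.

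When slide was a fixed block in limma, so that slide 1 sets the difference, 0 of the 35 genes passed, against 0.0886% of all genes. At an unadjusted p under 0.05 there were 6 (17.1%), against 19% of all genes. These were Elovl6 (-1.24), Dgat1 (0.45), Cpt1b (-0.89), Eci1 (0.71), Acaa1a (0.91) and Etfa (-0.63), with limma adjusted p-values of at least 0.139. Cpt1b is the muscle form of the outer-membrane carnitine enzyme, and Eci1 is an isomerase for unsaturated chains. In that fit the 95% confidence interval lay within a 2-fold change for 23 of the 35 genes, against 59.3% of all genes. On slides 2 and 3 alone, 9 of the 35 (25.7%) passed in limma, against 22.5% of all genes. The 2 higher with fipronil, against 9.59% of all genes, were Acaca and Etfdh. The 7 lower, against 12.9% of all genes, were Mid1ip1, Agpat2, Dgat1, Cpt2, Acads, Acadvl and Etfb.

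More than 1 kept probe was available for 6 genes, and for Hadha and Gpam the probes differed in sign. Hadha, on chromosome 6, encodes the alpha subunit of the mitochondrial trifunctional protein, which carries out the later steps of the spiral for long chains. It was read by 4 probes of 60 bases, whose last 30 bases, as the array files give them, are shown because the probes gave different results; capitals mark a run of A at the end of a probe.
A_44_P1082214: ctgtgaattaaatgtttgtacttcAAAAAA
A_44_P1153310: ggctagccttggatttgctcctccatgata
A_44_P400202: ataacattaaaatccagactgtcggcctct
A_64_P055984: cgtgcagacagagcaaagaaaatgggactg

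The brightest, A_44_P1082214, stood for Hadha and differed by -0.24 ± 0.20 (SE), with 0.44 on slide 1. A_44_P1153310 differed by 0.08 ± 0.14 (SE) and A_44_P400202 by 0.31 ± 0.13 (SE). A_64_P055984 differed by 0.58 ± 0.20 (SE), with an unadjusted p of 0.012 and an adjusted p of 0.0979 in the limma fit over all kept probes. On slide 1 all 4 probes had a higher mean with fipronil, by 0.44, 0.555, 0.40 and 0.74 in the order listed. Between slides 3 and 2 the differences were -0.58, -0.16, 0.26 and 0.51. The probe that ends in a run of A was the lowest of the 4 there. Which transcripts each probe reads was not tested.

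**Figure D4:**
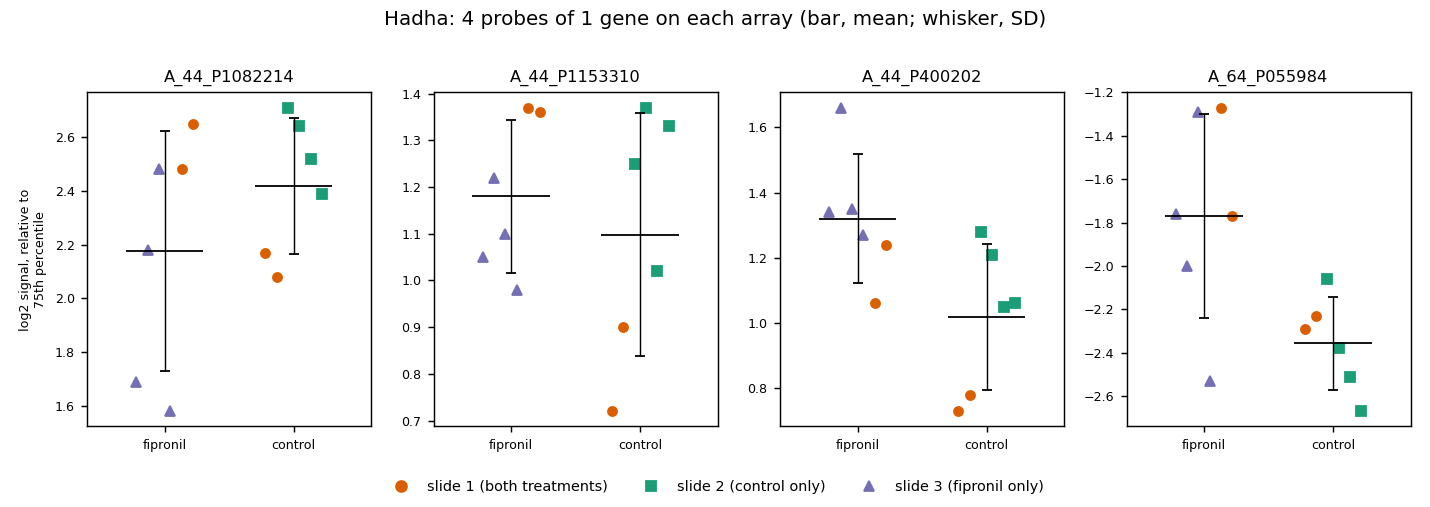
Log2 signal of the 4 Hadha probes on each array, relative to the array's 75th percentile, with fipronil left and control right, coloured by slide; bars are means and whiskers SDs of 6 arrays. The mean difference runs between -0.24 for A_44_P1082214 and 0.58 for A_64_P055984, and all 4 probes overlap between the groups.

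The kept probes of Gpam, on chromosome 1, differed by -0.34 for the probe that stood for it and 0.25 for the other. Both were well above background on all 6 control arrays but on only 1 and 2 of the 6 fipronil arrays, so no conclusion is drawn from them. For Scd2, Dgat1, Cpt1b and Acaa1a the kept probes had differences of the same sign.

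Other genes of the same pathways, 93 in all, were set beside the 44. Of these, 65 were tested and 3 passed (limma): 2 were higher with fipronil, against 2.24% of all genes, and 1 was lower, against 2.77%. Cpt1c, on chromosome 1, encodes the form of carnitine palmitoyltransferase found in neurons, which lies in the endoplasmic reticulum. Its signal was -0.27, -0.08 and 0.24 in fipronil samples, against -0.84, -0.57 and -0.39 in control samples, without overlap. It rose by 0.55 ± 0.13 (SE), a signal 1.46-fold higher, with a limma adjusted p of 0.0316 (0.129 with slide as a block). With median scaling it was 0.45, with a limma adjusted p of 0.102. The difference was 0.68 on slide 1, and the gene still passed in 4 of the 12 fits with an array left out. It no longer passed once control replicate 2, 3, 5, 6 or 7 was left out, or fipronil replicate 1, 3 or 4, with limma adjusted p-values of 0.0505 to 0.0772.

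Hacd1, on chromosome 17, encodes a dehydratase of the elongation cycle of very long chains. It was dim, well above background on 4 fipronil and 4 control arrays, with signals of -4.18, -3.585 and -3.20 in fipronil samples, against -5.06, -4.47 and -4.17 in control samples. The lowest signal well above background was -4.66 to -4.29 on the fipronil arrays of slide 3, and -5.83 to -5.40 on the control arrays of slide 2. Whether this unequal floor adds to the Hacd1 difference was not tested. Hacd1 rose by 0.86 ± 0.19 (SE), with a limma adjusted p of 0.0265 (0.4 with slide as a block). The difference was 0.52 on slide 1, and Hacd1 still passed in 7 of the 12 fits with an array left out. With control replicate 6 or 7 left out, or fipronil replicate 1, 2 or 4, the limma adjusted p was 0.0506 to 0.0604. With normexp background correction and quantile normalization the Hacd1 difference was 0.19, with a limma adjusted p of 0.0646. Hsd17b12, on chromosome 3, encodes the reductase of the same cycle. Its signal was 1.69, 1.86 and 1.97 in fipronil samples, against 2.15, 2.19 and 2.41 in control samples, without overlap. It fell by 0.38 ± 0.09 on the log2 scale (SE), with a limma adjusted p of 0.0389 (0.261 with slide as a block), and still passed in 2 of the 12 fits, those without fipronil replicate 7 or 8. Without any other array the limma adjusted p was 0.0602 to 0.087. The limma adjusted p was 0.0555 with quantile normalization and in the fit on the authors' deposited table, and 0.0519 with median scaling. The mean over its kept probes differed by -0.18, with a limma adjusted p of 0.34.

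**Figure D5:**
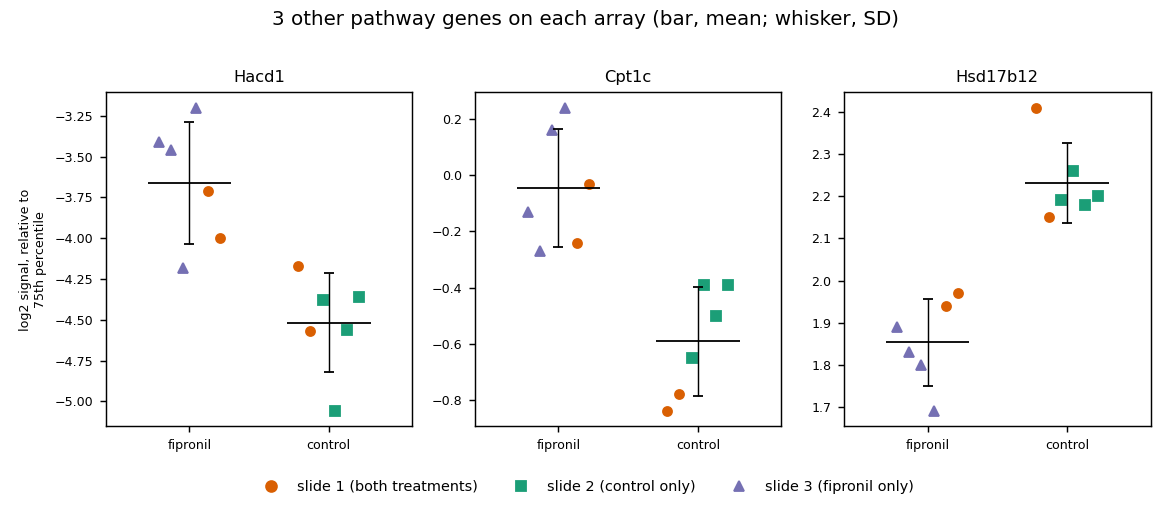
Log2 signal of Hacd1, Cpt1c and Hsd17b12 on each array, relative to the array's 75th percentile, with fipronil left and control right, coloured by slide; bars are means and whiskers SDs of 6 arrays. Cpt1c and Hsd17b12 do not overlap between the groups, and the lowest fipronil array of Hacd1, at -4.18, lies just below the highest control array, at -4.17.

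By role, the counts of these other genes were as follows, to be read against 5.01% of all genes past the threshold and 25% with an unadjusted p under 0.05. Of 7 tested genes of fatty acid activation, 0 passed and 0 had an unadjusted p under 0.05 in limma. Of 11 tested regulators, which include Srebf1, Srebf2, Insig1 and Ppara, 0 passed and 1 had an unadjusted p under 0.05. Of 22 tested genes of synthesis, 2 passed, and 5 had an unadjusted p under 0.05. Of 19 tested genes of oxidation, 1 passed, and 4 had an unadjusted p under 0.05. Of 6 tested genes of storage and release, 0 passed and 1 had an unadjusted p under 0.05. On slide 1, 42 of the 65 genes (64.6%) had a higher mean with fipronil, against 48.4% of all genes. Between slides 3 and 2, 18 of the 65 (27.7%) had, against 41.5% of all genes.

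Promoter windows of 300 bases, 250 before and 50 after the start of each gene, were found for 35 of the 44 genes in the RefSeq annotation of GRCr8. The sterol response element TCACNCCAC, searched on both strands, was in 0 of 13 synthesis promoters and 1 of 15 oxidation promoters (Ehhadh), against 1.13% of all 27457 promoters. The CCAAT box, searched as CCAAT on both strands, was in 8 of 13 synthesis and 6 of 15 oxidation promoters, against 37.7% of all promoters. The E-box CACGTG was in 1 of 13 synthesis promoters (Elovl5), 0 of 15 oxidation promoters and 1 of 7 uptake and storage promoters (Plin2), against 6.65% of all promoters. The direct repeat that PPAR receptors bind, known as DR1, was in none of the 35, against 0.0583% of all promoters. These are matches of letters only.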

How the data were processed

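Total RNA of N27 cells was labelled with Cy3 and hybridised to one-colour Agilent rat arrays, 6 for fipronil and 6 for untreated cells. The submitters' processing notes name version 10.7 of Agilent Feature Extraction for spot quantification. Per the file headers, the processed signal is a background-subtracted intensity. Raw intensity values of spot means and local background medians stand beside it, per the file headers. Other values of 0 or 1 are flags set by that software, per the file headers. The table deposited for the whole series holds log2 values whose distribution hardly differs between the 12 arrays. Its column medians, over spots that were not controls, were 3.04 to 3.06, and it was used as an alternative.

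Log2 processed signals were reduced by each array's 75th percentile, and spots of a probe were averaged. Between 323 and 711 spots per array were flagged as outliers. A flagged spot was dropped only when its probe also had an unflagged spot there, and otherwise its value stayed in. A probe was kept when it was well above background on 6 or more of the 12 arrays, which left 16291 probes. The brightest kept probe stood for its gene, which gave 13542 genes. Current names were looked up in RefSeq's GRCr8 annotation of the rat. Accessions named 21109 probes, symbols 6684 and synonyms 424, while 17381 kept the name in the files. The probes' own coordinates belong to an older assembly and are not printed.

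Fipronil and control arrays were compared by two-sided lmFit and eBayes tests in limma 3.58.1, run in R 4.3.3 with the package data.table (1.17.8). The Benjamini-Hochberg adjustment ran over all 13542 genes, with a threshold of 0.05. The script was tested on simulated data. The number of arrays limits the precision. Replicate numbers 2, 3, 7 and 8 occur in both groups. Deviations of same-numbered arrays correlated over genes at 0.43, 0.08, -0.11 and -0.31. Same-numbered arrays never shared a slide, so these correlations carry slide differences and cannot show whether the numbers mark pairs. The labels do not say so either, and the numbers were not used as pairs in the main fit.

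The 44 genes, the other lists and the motifs were chosen with earlier results of these data known. Values are given for Fasn, Scd, Cpt1a, Acadm and Plin2, for any of the 44 past the threshold, and for the genes with the smallest unadjusted p in each group up to 4. Of the other pathway genes, those past the threshold are given. Genes described beyond that were chosen after their values were seen. Other scalings, background corrections, filters, probe summaries, slide terms and arrays left out were tried as alternatives.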

Additional observations from a re-analysis of the deposited data

Results flagged for a closer look

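Among the 76 sets of 6 arrays examined for an array standing far from the others, 3 held one, where chance gives about 3.8. Elovl6 was -1.80 in fipronil replicate 8 (slide 1), below the nearest fipronil array at -1.06. Fads2 was -5.12 in fipronil replicate 1 (slide 3), below the nearest fipronil array at -3.08. That is also below the lowest signal well above background on the same array, -4.495. Gpam was -4.10 in control replicate 8 (slide 2), below the nearest control array at -3.58. All are log2 signals relative to the 75th percentile of the array.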

How the results depend on the processing

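The 35 tested fatty acid genes had 0 calls in limma with slide as a fixed or random block, on slide 1 alone, with quantile normalization, in the authors' deposited table, with an intensity trend, with the mean over a gene's probes and, for 33 of them, with probes well above background on all 12 arrays. Over all genes, against 678 calls, slide as a fixed block gave 12, slide as a random block 21 and slide 1 alone 0 (2140 at an unadjusted p under 0.05). The medians of synthesis, oxidation and uptake genes were 0.08, 0.16 and 0.20 both with slide as a fixed block and on slide 1 alone, the same difference by construction. Slides 2 and 3 alone gave 3044 calls, 9 of them fatty acid genes (4 synthesis, 5 oxidation). The replicate block gave 0 calls (2164 at an unadjusted p under 0.05) and a synthesis median of -0.14. Leaving out each array gave 228 to 2022 calls, 0 to 2 of fatty acid genes, with 0 to 2 of synthesis and 0 to 1 of oxidation, and a synthesis median of -0.28 to -0.15. Fipronil replicate 8 moved the count most: without it Mid1ip1 and Agpat2 passed, 5.71% of the 35, against 14.9% of all genes. Median scaling moved the median of all genes to -0.18 and called Etfa alone of the 35 (1 oxidation gene). It split its 585 calls (4.32% of all genes) into 150 higher and 435 lower, against 303 and 375. Normexp with the 75th percentile moved the median of all genes to 0.17 and gave 6776 calls (5116 higher, 1660 lower), 50% of all genes. Of the 35 fatty acid genes 13 (37.1%) passed in that fit (7 synthesis, 5 oxidation, 1 uptake), with a synthesis median of -0.01. Cpt1a, at 0.06 on the 12 arrays, reached 0.51 there. Normexp with quantile normalization called Etfa alone (1 oxidation gene), against 7.47% of all genes, with a synthesis median of -0.12. Without a filter, 36181 genes were tested with a median of 0.55 and 16313 calls. Of the 44 fatty acid genes 9 passed (3 synthesis, 2 oxidation, 4 uptake), 20.5% against 45.1% of all genes. The 7 higher were Thrsp, Lpin1, Ehhadh, Pdk4, Acot1, Cd36 and Fabp3, all of them among the 9 genes too dim for the main fit. Medians were -0.10 for synthesis and 0.90 for uptake, the latter with Pdk4, Acot1, Cd36 and Fabp3 included. The mean over a gene's probes gave a synthesis median of -0.17. The causes of these changes were not tested. Dim signals on fipronil arrays limit what can be said of Fads2 (well above background on 4 of 6) and Gpam (1 of 6). Dim signals in both groups limit what can be said of Hacd1 (4 of 6 in each). The 9 genes not tested were dim in both groups: each probe was well above background on at most 2 of 12 arrays, and on at most 1 control array.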
